A study of Mus musculus with 6 samples.

Results

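The set examined here comprised 37 mouse genes of cholesterol and fatty acid metabolism, out of 27179 gene IDs counted. It started from a list of 39 genes, and a listed gene was taken when its symbol stood in a comparison table deposited by the authors; both tables held the 37. The other 2, Ebp and Nsdhl, were in neither table, and their counts are given beside the sterol genes. RNA was sequenced from 6 samples in 3 groups of n = 2. H7 tumours were grown from PANC02-H7 cells and UNKC tumours from UN-KC-6141 cells. Both are mouse pancreatic cancer lines, injected into the pancreas of C57BL/6 mice, and the tumours were taken 20 days later. The third group was normal whole pancreas of C57BL/6 mice. No mouse was treated, each tumour type stands for a single cell line, and the tumours also held host cells. The labels do not say that the samples of a group came from separate mice, so the p-values measure the spread between these samples, which may be technical.

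Cells make cholesterol from acetyl-CoA through the mevalonate pathway, which yields squalene, and a further chain of enzymes turns squalene into sterols. The membrane-bound SREBP factors switch on the genes of this route when sterols are scarce; SCAP carries them out of the endoplasmic reticulum and the INSIG proteins hold them back. Sterol-activated LXR receptors act the other way, raising the export of cholesterol. Fatty acids are built from the same acetyl-CoA and are then elongated and desaturated, and fat cells and liver are known for high activity of that route.

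The 4 tumour libraries held 33332516 to 40507546 reads counted in genes, and the normal libraries 12077320 and 8204225. Ribosomal RNA made up 20.1% to 27.8% of the tumour reads, against 86.4% and 85.0% in normal pancreas. The 37 genes held 127434 to 142065 reads per tumour library, and 3640 and 3818 reads in the normal libraries, so each value of normal pancreas rests on far fewer reads. Levels are given as CPM, reads scaled to a common library size with TMM factors, and differences as log2 fold changes with their standard error (SE). Adjusted p-values are from edgeR's quasi-likelihood test with Benjamini-Hochberg adjustment over 16306 genes, and a gene is called higher or lower below 0.05. All 37 genes passed the filter on low counts. In bulk tissue, fewer cells of a type and less RNA per cell cannot be told apart.

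Set against normal pancreas, H7 tumours had 18 of the 37 genes higher and 5 lower, where 29.6% and 21.9% of all tested genes were called in these directions. In UNKC tumours 20 were higher and 6 lower, with 29.1% and 19.3% of all tested genes. The median log2 fold change of the 37 was 1.15 in H7 tumours, against 0.34 over all tested genes, and 1.08 in UNKC tumours, against 0.42. Both comparisons share the normal libraries. Between the tumours, 5 of the 37 were higher and 1 lower in H7 than in UNKC tumours, with 7.14% and 11.1% of all tested genes called, and the median was 0.37 against -0.02. By role, the called genes of sterol synthesis and of the SREBP group were all higher in both tumours than in normal pancreas, whereas those of fatty acid synthesis went in both directions. The authors' deposited tables called 17 of the 37 higher and 5 lower in H7 tumours, and 17 higher and 8 lower in UNKC tumours. Unlike the edgeR test, they called Cd36 lower in both tumours, Fasn lower in H7 tumours and Scap lower in UNKC tumours. They did not call Mvd in either tumour, Acss2 and Nr1h3 in H7 tumours, or Dhcr7 and Hsd17b7 in UNKC tumours. Of all 15306 genes they held for H7 tumours, 3536 were higher and 3556 lower. For UNKC tumours these were 3595 and 3535 of 15940. Scaled to total reads without TMM factors, the median of all tested genes was 3.61 in H7 and 3.77 in UNKC tumours against normal pancreas, and directions below are relative to the TMM scale. Replicate 2 of both tumours carried muscle transcripts. Leaving both out left 1 library in each tumour, and edgeR then called no gene in any of the 3 comparisons. With so few libraries, the lost calls cannot be told from lost power. All 23 genes of the set called in H7 tumours, all 26 called in UNKC tumours and all 6 called between the tumours kept their sign. Their log2 fold changes moved by at most 1.39, 1.96 and 0.16 in these comparisons.

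**Figure D1:**
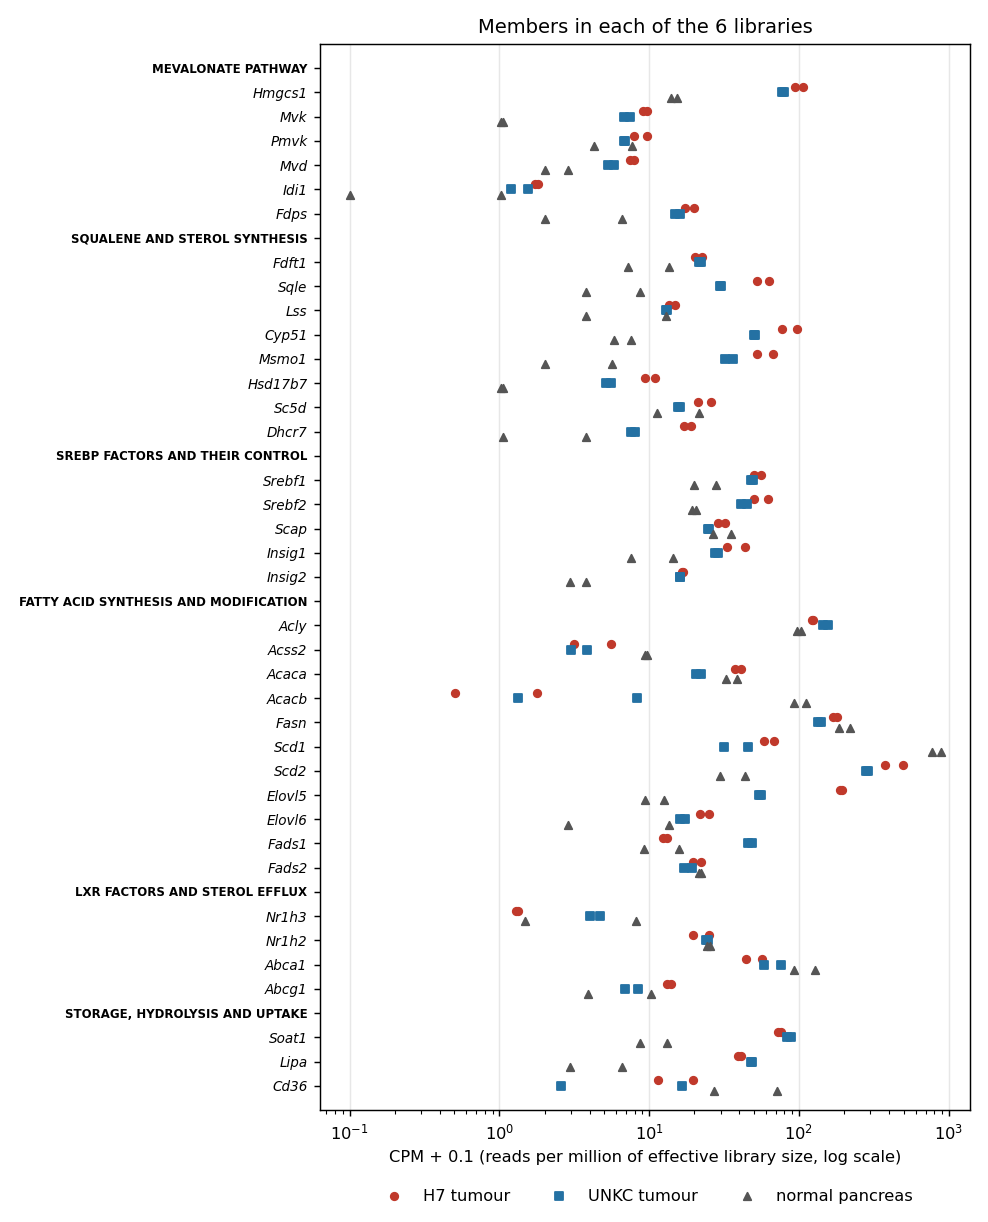
Level of each of the 37 genes in the 6 libraries, as CPM plus 0.1 on a log axis, with genes down the page by role; red circles are H7 tumours, blue squares UNKC tumours and grey triangles normal pancreas. Most genes of mevalonate and sterol synthesis lie to the right in both tumours, while Scd1 and Acacb lie far to the right in normal pancreas.

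The plot of levels by library shows how close the replicates of a tumour lay for most genes, and how far apart the normal replicates lay for several, among them Lss, Elovl6, Nr1h3 and Fdps. Across all genes, the log2 CPM of replicates correlated at r = 0.967 in H7 tumours, 0.949 in UNKC tumours and 0.801 in normal pancreas; genes are not independent replicates. The group ranges of H7 tumours and normal pancreas did not overlap for 31 of the 37 genes, or 83.8%, against 76.9% of all tested genes; 51.5% of all tested genes were called, and 8 of the 31 were not. For UNKC tumours and normal pancreas they did not overlap for 31 genes, or 83.8%, against 76.6% of all tested genes; 48.5% of all tested genes were called, and 5 of the 31 were not.

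Summed over 14 genes, the mevalonate pathway and sterol synthesis stood at 473 and 399 CPM in H7 tumours, 293 and 289 CPM in UNKC tumours, and 78.7 and 87.3 CPM in normal pancreas. The sum was highest in both H7 libraries and lowest in both normal libraries, and the 3 groups did not overlap. Of the 6 mevalonate genes, 4 were higher in each tumour and none was lower; of the 8 genes from squalene onward, 6 were higher in each tumour and none was lower.

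Hmgcs1, which encodes the cytosolic HMG-CoA synthase at the entry of the pathway, stood at 106 and 93.6 CPM in H7 tumours, 76.5 and 78.7 CPM in UNKC tumours and 13.9 and 15.3 CPM in normal pancreas. It rose by 2.77 ± 0.15 in H7 tumours (log2 fold change ± SE, edgeR adjusted p = 0.000136) and by 2.41 ± 0.14 in UNKC tumours (adjusted p = 0.00017). Mvk, the mevalonate kinase, stood at 9.62 and 9.05 CPM in H7 tumours and 6.72 and 7.37 CPM in UNKC tumours, and each normal library held 2 reads. Reads count both mates of a pair, so these are 2 fragments over the normal libraries, and the ratio is given with its exact 95% counting interval, which covers counting error only. For Mvk the ratio of H7 tumours to normal pancreas was 9.92 (2.74 to 82.1), and that of UNKC tumours 7.498 (2.07 to 62.1). Both Mvk calls passed the test (edgeR adjusted p = 0.000386 in H7 and 0.000705 in UNKC tumours). Mvd encodes a decarboxylase of the same pathway. It was higher in H7 tumours (7.78 and 7.37 CPM) and in UNKC tumours (5.19 and 5.68 CPM) than in normal pancreas (2.78 and 1.91 CPM). Its log2 fold changes were 1.69 ± 0.31 (edgeR adjusted p = 0.00567) and 1.21 ± 0.32 (adjusted p = 0.0222). Fdps, which makes farnesyl diphosphate, stood at 19.7 and 17.1 CPM in H7 tumours, 15.8 and 14.8 CPM in UNKC tumours and 6.48 and 1.91 CPM in normal pancreas, and rose in both tumours (2.13 ± 0.42 and 1.86 ± 0.42).

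The phosphomevalonate kinase Pmvk and the isomerase Idi1 did not pass the test. Pmvk stood at 9.60 and 7.84 CPM in H7 tumours and 6.72 and 6.79 CPM in UNKC tumours, against 4.17 and 7.63 CPM in normal pancreas, a log2 fold change of 0.57 ± 0.32 and 0.20 ± 0.32. Idi1 was scarce throughout, with 118 and 127 reads in H7 tumours, 130 and 93 reads in UNKC tumours, and 2 and 0 reads in normal pancreas. Its ratio to normal pancreas was 3.56 (0.628 to 142) in H7 tumours and 2.71 (0.477 to 108) in UNKC tumours, so a difference was not detectable at this depth. Without normal replicate 2 the call of Pmvk in H7 tumours was gained (log2 fold change 1.10). Without normal replicate 1 that of Idi1 was gained in both tumours (log2 fold change 9.76 in H7 and 9.36 in UNKC tumours). The normal library then left held 0 Idi1 reads, so the size of these changes is not meaningful. The Mvd call in UNKC tumours was lost without H7 replicate 2, UNKC replicate 1 or UNKC replicate 2. It was also lost in other settings: of 15 alternatives apart from total counts, 7 kept it.

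From squalene onward, Sqle, the squalene monooxygenase, stood at 62.7 and 52.5 CPM in H7 tumours, 29.5 and 30.0 CPM in UNKC tumours and 3.70 and 8.59 CPM in normal pancreas (log2 fold change 3.23 ± 0.33 in H7 and 2.28 ± 0.33 in UNKC tumours; edgeR adjusted p = 0.00067 and 0.00238). Cyp51, the lanosterol demethylase, stood at 97.3 and 76.7 CPM in H7 tumours, 51.0 and 49.98 CPM in UNKC tumours and 7.41 and 5.73 CPM in normal pancreas. It was 13.2-fold higher in H7 tumours (95% interval 9.26 to 18.9, edgeR adjusted p = 0.000158) and 7.68-fold higher in UNKC tumours (5.395 to 10.9, adjusted p = 0.000235). Msmo1 encodes a methylsterol monooxygenase of the same chain. It stood at 66.5 and 52.1 CPM in H7 tumours, 36.4 and 31.8 CPM in UNKC tumours and 5.55 and 1.91 CPM in normal pancreas. Its log2 fold changes, 3.98 ± 0.39 and 3.19 ± 0.38, were the largest of the cholesterol synthesis genes in both tumours (edgeR adjusted p = 0.000554 and 0.00127). For these genes every tumour library lay above both normal libraries, and every H7 library above both UNKC libraries.

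Hsd17b7, which reduces the keto group of a sterol intermediate, stood at 10.9 and 9.29 CPM in H7 tumours and 5.07 and 5.46 CPM in UNKC tumours, with 2 reads in each normal library. The ratio to normal pancreas was 10.7 (2.95 to 88.5) in H7 tumours and 5.60 (1.54 to 46.4) in UNKC tumours, and both passed the test (edgeR adjusted p = 0.000413 and 0.00171). Dhcr7, the reductase of the last step, stood at 18.8 and 16.97 CPM in H7 tumours, 7.89 and 7.51 CPM in UNKC tumours and 3.70 and 0.954 CPM in normal pancreas (log2 fold change 2.93 ± 0.43 and 1.71 ± 0.44; edgeR adjusted p = 0.00227 and 0.0202). Fdft1, the squalene synthase, rose less, by 1.03 ± 0.28 in H7 tumours (22.3 and 20.0 CPM) and by 1.08 ± 0.28 in UNKC tumours (22.1 and 21.5 CPM), against 13.4 and 7.16 CPM in normal pancreas (edgeR adjusted p = 0.0233 and 0.0211). Lanosterol synthase Lss and the sterol desaturase Sc5d were not called. Lss stood at 14.9 and 13.4 CPM in H7 tumours, 13.0 and 12.9 CPM in UNKC tumours and 3.70 and 12.9 CPM in normal pancreas, whose 2 libraries thus spanned the gap. Sc5d stood at 25.7 and 21.1 CPM in H7 tumours, 16.1 and 15.4 CPM in UNKC tumours and 11.1 and 21.5 CPM in normal pancreas. Without normal replicate 2, Lss was called higher in both tumours (log2 fold change 1.97 and 1.83) and Sc5d in H7 tumours (1.11). The Fdft1 call was lost without either H7 replicate in H7 tumours, and in UNKC tumours without H7 replicate 1 or either UNKC replicate. It was also lost in other settings: of 15 alternatives apart from total counts, 9 kept it in H7 tumours and 8 in UNKC tumours. The Dhcr7 call in UNKC tumours was lost without H7 replicate 1 (edgeR adjusted p = 0.0556), H7 replicate 2 (0.0509) or UNKC replicate 1 (0.0648).

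The listed genes Ebp and Nsdhl, named through RefSeq, encode a sterol isomerase and a sterol dehydrogenase of the same chain. Ebp stood at 24.4 and 24.5 CPM in H7 tumours, 21.9 and 23.96 CPM in UNKC tumours and 3.70 and 3.82 CPM in normal pancreas, and rose by 2.70 ± 0.19 and 2.61 ± 0.19. Nsdhl stood at 11.9 and 9.204 CPM in H7 tumours, 6.67 and 7.17 CPM in UNKC tumours and 2.78 and 3.82 CPM in normal pancreas, and rose by 1.68 ± 0.30 and 1.07 ± 0.31. For both, no tumour library overlapped the normal ones.

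Promoter windows were available for 30 of the 37 genes (RefSeq, GRCm38.p6, from 250 bases before to 50 after an annotated start). The letters CCAAT, the core bound by the factor NF-Y, stood on either strand in the window of 23 of the 30, or 76.7%, against 42.3% of the 12255 tested genes with a window. All 5 mevalonate genes and all 6 later sterol genes with a window held it, as did 4 of 5 genes of the SREBP group, 5 of 8 of fatty acid synthesis, 0 of 3 of the LXR group and 3 of 3 of storage and uptake. GGGCGG, an Sp box, stood in 22 of 30, or 73.3%, against 63.9% of tested genes. TCACNCCAC, a core of the sterol regulatory element, matched 1 of 30, Hmgcs1, against 1.46% of tested genes. The LXR element known as DR4, in its exact form, matched none of the 30 and no tested gene. The 250 bases before the start of 4 raised sterol genes are shown because they carry repeated CCAAT letters, and those of Acacb because it fell and carries a single copy. Capitals mark CCAAT or its reverse complement ATTGG and, in Hmgcs1, also the element core TCACCCCAC. The printed bases hold 3 such boxes in Hmgcs1, 5 in Mvk, 3 in Msmo1, 3 in Hsd17b7 and 1 in Acacb, whose annotated start lies inside the gene as the tables give it. A match is a description of letters, not of binding. The printed examples do not show that the number of boxes follows direction. Fasn, called lower in UNKC tumours, held such boxes at -90, -62 and -59 from the start. Cyp51, called higher in both tumours, held one at -29 only.
Hmgcs1, chr13:119690101-119690350, plus strand: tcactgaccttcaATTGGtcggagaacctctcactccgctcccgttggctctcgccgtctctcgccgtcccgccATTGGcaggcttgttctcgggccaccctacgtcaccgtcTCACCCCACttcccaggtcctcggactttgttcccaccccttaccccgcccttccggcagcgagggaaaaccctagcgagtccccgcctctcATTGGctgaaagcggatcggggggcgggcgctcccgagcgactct
Mvk, chr5:114444019-114444268, plus strand: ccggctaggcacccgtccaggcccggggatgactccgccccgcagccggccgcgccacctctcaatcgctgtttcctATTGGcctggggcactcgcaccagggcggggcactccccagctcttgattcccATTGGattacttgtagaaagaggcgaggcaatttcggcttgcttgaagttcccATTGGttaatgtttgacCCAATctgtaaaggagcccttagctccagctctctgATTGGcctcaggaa
Msmo1, chr8:64733579-64733828, minus strand: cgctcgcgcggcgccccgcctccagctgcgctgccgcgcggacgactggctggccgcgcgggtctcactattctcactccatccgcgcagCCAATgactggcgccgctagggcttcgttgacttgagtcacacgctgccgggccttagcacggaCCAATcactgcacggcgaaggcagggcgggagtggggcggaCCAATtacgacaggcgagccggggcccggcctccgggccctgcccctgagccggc
Hsd17b7, chr1:169969206-169969455, minus strand: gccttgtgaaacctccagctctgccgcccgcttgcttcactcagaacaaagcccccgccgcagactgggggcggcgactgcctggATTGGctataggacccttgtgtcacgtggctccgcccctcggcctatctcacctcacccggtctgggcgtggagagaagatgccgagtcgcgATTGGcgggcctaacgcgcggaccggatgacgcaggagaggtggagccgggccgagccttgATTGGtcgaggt
Acacb, chr5:114165268-114165517, plus strand: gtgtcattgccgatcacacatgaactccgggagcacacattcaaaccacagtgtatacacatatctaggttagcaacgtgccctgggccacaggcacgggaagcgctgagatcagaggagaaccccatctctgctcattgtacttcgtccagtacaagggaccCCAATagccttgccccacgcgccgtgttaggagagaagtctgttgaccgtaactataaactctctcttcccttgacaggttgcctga

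Among the SREBP group, Srebf1 and Srebf2, which encode the SREBP factors, and both INSIG genes were higher in each tumour, and Scap was not called in either. Srebf2, the factor best known for sterol genes, stood at 62.0 and 50.2 CPM in H7 tumours, 40.7 and 45.0 CPM in UNKC tumours and 20.4 and 19.1 CPM in normal pancreas, a rise of 1.51 ± 0.17 and 1.12 ± 0.17 (edgeR adjusted p = 0.000874 and 0.00269). Srebf1, the factor best known for fatty acid genes, stood at 56.1 and 49.8 CPM in H7 tumours, 49.4 and 48.0 CPM in UNKC tumours and 19.9 and 27.7 CPM in normal pancreas, a rise of 1.15 ± 0.19 and 1.03 ± 0.19. Insig1 stood at 43.6 and 32.8 CPM in H7 tumours, 28.8 and 27.6 CPM in UNKC tumours and 7.41 and 14.3 CPM in normal pancreas (1.82 ± 0.31 and 1.38 ± 0.31). Insig2 stood at 16.7 and 16.6 CPM in H7 tumours, 15.99 and 15.9 CPM in UNKC tumours and 3.70 and 2.86 CPM in normal pancreas (2.34 ± 0.22 and 2.28 ± 0.22). The libraries of the 4 called genes did not overlap between either tumour and normal pancreas, and the Insig2 values of the 4 tumour libraries lay within 1 CPM of each other. Scap, the escort protein, stood at 32.1 and 28.5 CPM in H7 tumours, 24.8 and 25.1 CPM in UNKC tumours and 35.2 and 26.7 CPM in normal pancreas. Without UNKC replicate 1 the Insig1 call in UNKC tumours was lost (edgeR adjusted p = 0.0501), and without normal replicate 2 Scap was called lower there (log2 fold change -0.46, adjusted p = 0.0287).

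**Figure D2:**
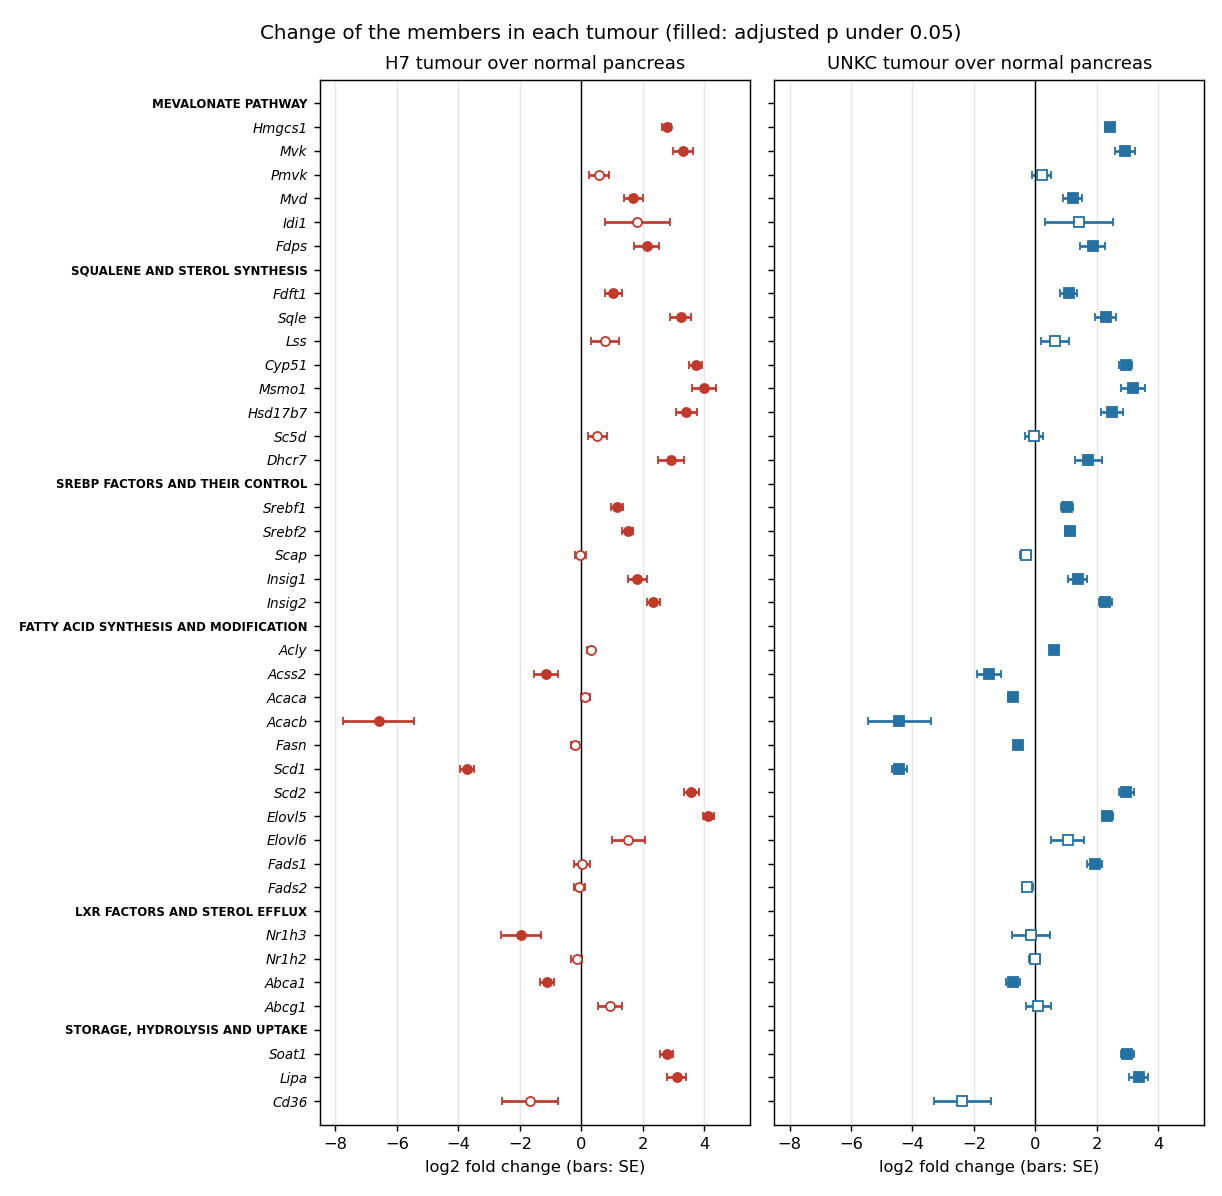
Log2 fold change of each gene over normal pancreas, with SE bars, in H7 tumours (left) and UNKC tumours (right); filled symbols had an edgeR adjusted p under 0.05. Called sterol and SREBP genes lie right of 0 in both panels, and Acacb and Scd1 lie farthest to the left.

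The plot of changes over normal pancreas shows the genes of fatty acid synthesis and modification on both sides of 0. In H7 tumours 2 of these 11 genes were higher and 3 lower, against 29.6% and 21.9% of all tested genes. In UNKC tumours 4 were higher and 5 lower, against 29.1% and 19.3% of all tested genes. The 11 genes summed to 1161 and 1014 CPM in H7 tumours, 773 and 782 CPM in UNKC tumours and 1345 and 1396 CPM in normal pancreas. Both normal libraries lay above all tumour libraries, an order that rests on Scd1. This gene alone held 778 and 886 CPM in normal pancreas, 68.0 and 58.7 CPM in H7 and 31.3 and 45.6 CPM in UNKC tumours. Scd1 also supplied 1680 and 1857 of the 2905 and 2925 fatty acid gene reads in normal pancreas, which enter the next ratio. Within a library, reads of the 14 sterol synthesis genes over those of the 11 fatty acid genes came to 0.408 and 0.393 in H7 tumours, 0.380 and 0.369 in UNKC tumours and 0.0585 and 0.0626 in normal pancreas, a ratio that no scaling between libraries touches.

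The stearoyl-CoA desaturases, which put the first double bond into saturated fatty acids, moved in opposite directions. Scd1 (chromosome 19, 44394450 to 44407709) fell to 68.0 and 58.7 CPM in H7 tumours and 31.3 and 45.6 CPM in UNKC tumours, against 778 and 886 CPM in normal pancreas. Its log2 fold changes were -3.71 ± 0.23 (edgeR adjusted p = 0.000177) and -4.43 ± 0.24 (adjusted p = 0.00015). Scd2 (chromosome 19, 44293676 to 44306864) rose to 495 and 376 CPM in H7 tumours and 288 and 282 CPM in UNKC tumours, against 43.5 and 29.6 CPM in normal pancreas. Its log2 fold changes were 3.57 ± 0.25 (edgeR adjusted p = 0.000201) and 2.96 ± 0.24 (adjusted p = 0.000331). Reads of Scd2 over reads of Scd1 came to 7.28 and 6.40 in H7 tumours, 9.19 and 6.18 in UNKC tumours and 0.0560 and 0.0334 in normal pancreas. Every tumour library thus held more Scd2 than Scd1 reads and both normal libraries the reverse. These paralogs are similar in sequence, so reads may have been split between them, and their values carry that uncertainty. Per length, as RPKM, Scd2 was the most abundant of the 37 genes in H7 tumours (79.9) and UNKC tumours (52.3), and Scd1 in normal pancreas (172).

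The acetyl-CoA carboxylases, which make malonyl-CoA, differed in the size of their change. Acacb (chromosome 5, 114146321 to 114250761), the form at the mitochondrial surface known for restraining fatty acid oxidation, fell to 0.406 and 1.69 CPM in H7 tumours and 1.23 and 8.22 CPM in UNKC tumours, against 111 and 92.6 CPM in normal pancreas. Its log2 fold change of -6.58 ± 1.16 in H7 tumours was the largest fall of the set (edgeR adjusted p = 0.00459), and that in UNKC tumours was -4.43 ± 1.04 (adjusted p = 0.0145). In both tumours replicate 2 held more Acacb than replicate 1. The 8 adipocyte markers summed to 1.32 and 18.9 CPM in UNKC tumours and 7.76 and 7.95 CPM in H7 tumours. The part of fat cells in this difference was not tested. The skeletal muscle markers were also high in replicate 2, with summed levels of 1.52 and 576 CPM over 7 genes in H7 tumours, 1.11 and 2087 CPM in UNKC tumours and 7.41 and 2.39 CPM in normal pancreas; their part in the Acacb level was not tested. Without UNKC replicate 2 the log2 fold change of Acacb in UNKC tumours was -6.34, and without UNKC replicate 1 it was -3.60. Acaca, the cytosolic carboxylase that feeds fatty acid synthesis, stood at 40.6 and 37.3 CPM in H7 tumours, 20.4 and 22.1 CPM in UNKC tumours and 32.4 and 38.6 CPM in normal pancreas. It fell in UNKC tumours (-0.74 ± 0.15, edgeR adjusted p = 0.00945) and was not called in H7 tumours (0.13 ± 0.15); without UNKC replicate 1 the UNKC call was lost (adjusted p = 0.0871).

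Markers of fat, acinar and islet cells were also lower in the tumours. Of 8 adipocyte markers, 7 were lower in H7 and 6 in UNKC tumours, and their summed level was 7.76 and 7.95 CPM in H7 tumours, 1.32 and 18.9 CPM in UNKC tumours and 96.7 and 205 CPM in normal pancreas. Adipoq, which encodes the fat cell hormone adiponectin, had no read in either H7 library, 4 and 100 reads in UNKC tumours and 36 and 82 reads in normal pancreas. The acinar markers, of which all 9 were lower in both tumours, summed to 25.6 and 32.4 CPM in H7 tumours, 11.9 and 4.13 CPM in UNKC tumours and 13243 and 12865 CPM in normal pancreas. Of 5 islet markers, 4 were lower in both tumours. They summed to 10.3 and 62.8 CPM in H7 tumours, 42.6 and 13.7 CPM in UNKC tumours and 603 and 274 CPM in normal pancreas. The part of any of these cell types in the falls of Scd1, Acacb and other genes was not tested.

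Fasn, the fatty acid synthase, stood at 180 and 170 CPM in H7 tumours, 134 and 141 CPM in UNKC tumours and 220 and 186 CPM in normal pancreas. It was lower in UNKC tumours (log2 fold change -0.56 ± 0.13, edgeR adjusted p = 0.0157) and not called in H7 tumours (-0.21 ± 0.13, adjusted p = 0.232). Acly, which makes cytosolic acetyl-CoA from citrate, stood at 123 and 122 CPM in H7 tumours, 157 and 145 CPM in UNKC tumours and 102 and 96.9 CPM in normal pancreas, and was called higher in UNKC tumours only (0.60 ± 0.12, against 0.30 ± 0.12 in H7 tumours). Acss2, which makes acetyl-CoA from acetate, fell to 5.42 and 3.06 CPM in H7 tumours and 2.92 and 3.72 CPM in UNKC tumours, against 9.26 and 9.54 CPM in normal pancreas (-1.15 ± 0.39 and -1.50 ± 0.39; edgeR adjusted p = 0.0499 and 0.0219). The calls of these genes were narrow. Acss2 was lost in H7 tumours without H7 replicate 2, either UNKC or either normal replicate (edgeR adjusted p from 0.0811 to 0.161), and in UNKC tumours without UNKC replicate 1 or either normal replicate (0.0574 to 0.105). The Fasn call in UNKC tumours was lost without H7 replicate 1 (edgeR adjusted p = 0.0522) or either UNKC replicate (0.118 and 0.0771), and the Acly call without UNKC replicate 1 (0.0648). Acly was called higher in H7 tumours without normal replicate 1 (edgeR adjusted p = 0.0357).

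Enzymes that lengthen and desaturate polyunsaturated fatty acids differed from each other. Elovl5 (chromosome 9, 77917365 to 77984519), the elongase of polyunsaturated fatty acids, stood at 187 and 193 CPM in H7 tumours, 54.2 and 55.4 CPM in UNKC tumours and 9.26 and 12.4 CPM in normal pancreas. It was 17.6-fold higher in H7 tumours (95% interval 13.0 to 23.7, edgeR adjusted p = 0.000126) and 5.06-fold higher in UNKC tumours (3.80 to 6.74, adjusted p = 0.000248), the largest rise of the set in H7 tumours. Fads1 and Fads2 encode the front-end desaturases that act in turn with Elovl5, and lie next to each other on chromosome 19 (10182877 to 10196874 and 10062765 to 10101503). Fads1 stood at 13.1 and 12.2 CPM in H7 tumours, 48.7 and 45.6 CPM in UNKC tumours and 15.7 and 9.07 CPM in normal pancreas. It was higher in UNKC tumours (1.92 ± 0.25, edgeR adjusted p = 0.0017) and not called in H7 tumours (0.03 ± 0.25, adjusted p = 0.937). Fads2 was called in neither tumour, at 22.1 and 19.4 CPM in H7 tumours, 19.3 and 16.9 CPM in UNKC tumours and 21.3 and 21.9 CPM in normal pancreas. Reads of Fads1 over reads of Fads2 came to 0.593 and 0.630 in H7 tumours, 2.53 and 2.70 in UNKC tumours and 0.739 and 0.413 in normal pancreas, so both UNKC libraries stood above the other 4. Elovl6, which lengthens palmitate, stood at 24.9 and 21.6 CPM in H7 tumours, 15.98 and 17.2 CPM in UNKC tumours and 2.78 and 13.4 CPM in normal pancreas, and was not called (1.54 ± 0.53 and 1.05 ± 0.53; edgeR adjusted p = 0.0543 and 0.158). Without normal replicate 1 or 2, Elovl6 was called higher in H7 tumours (log2 fold change 0.83 and 3.10), and without normal replicate 2 also in UNKC tumours (2.61). Without normal replicate 1, Fads1 was called higher in H7 tumours (0.51, edgeR adjusted p = 0.0297).

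**Figure D3:**
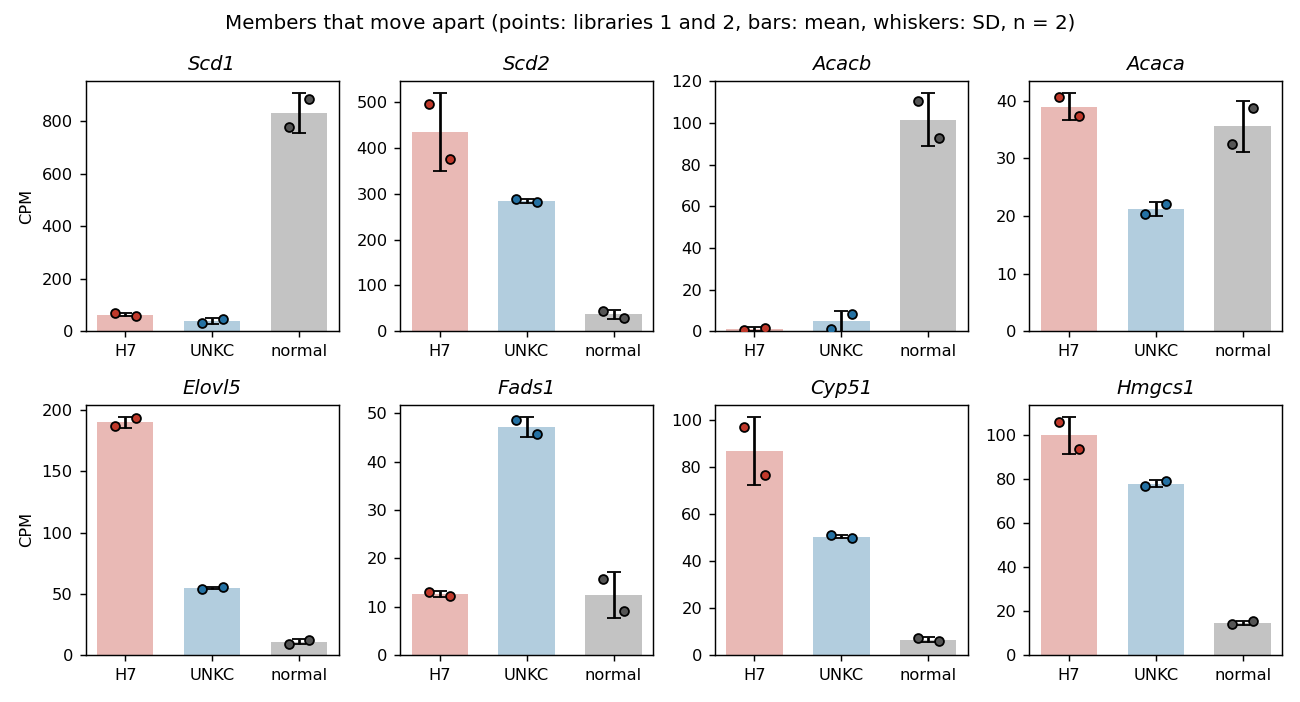
CPM of 8 genes in H7 tumours, UNKC tumours and normal pancreas, on linear axes from 0; bars are means, whiskers SD and points the 2 libraries of a group. Scd1 and Acacb are highest in normal pancreas, Scd2, Elovl5, Cyp51 and Hmgcs1 in H7 tumours and Fads1 in UNKC tumours.

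The bars of single genes show that paralogs and pathway neighbours did not share 1 pattern: Scd1 against Scd2, Acacb against Acaca, and Elovl5 against Fads1. Reads of Elovl5 over reads of Fads1 came to 14.2 and 15.9 in H7 tumours, 1.11 and 1.21 in UNKC tumours and 0.588 and 1.37 in normal pancreas.

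None of the 4 genes of LXR receptors and efflux was called higher in either tumour, and 2 were called lower in H7 and 1 in UNKC tumours. Abca1, the cholesterol efflux pump and a textbook LXR target, stood at 57.0 and 44.4 CPM in H7 tumours, 57.9 and 75.5 CPM in UNKC tumours and 93.0 and 128 CPM in normal pancreas. It fell by 1.12 ± 0.23 in H7 tumours (edgeR adjusted p = 0.00851) and by 0.73 ± 0.23 in UNKC tumours (adjusted p = 0.0418). Nr1h3, which encodes LXRα, stood at 1.19 and 1.23 CPM in H7 tumours, 4.60 and 3.93 CPM in UNKC tumours and 1.39 and 8.11 CPM in normal pancreas. Its normal values rested on 3 and 17 reads, and its fall in H7 tumours lay close to the threshold (-1.96 ± 0.65, edgeR adjusted p = 0.0474). Nr1h2, which encodes LXRβ, stood at 19.5 and 24.9 CPM in H7 tumours, 24.7 and 23.9 CPM in UNKC tumours and 24.1 and 25.3 CPM in normal pancreas, with log2 fold changes of -0.15 ± 0.18 and -0.02 ± 0.18. Abcg1, the partner efflux pump, stood at 13.0 and 14.0 CPM in H7 tumours, 6.78 and 8.27 CPM in UNKC tumours and 10.2 and 3.82 CPM in normal pancreas, and was not called. Without normal replicate 2 the log2 fold change of Nr1h3 was -0.16 in H7 and 1.65 in UNKC tumours (edgeR adjusted p = 0.791 and 0.0291). Without normal replicate 1, Nr1h3 was called lower in UNKC tumours (-0.90, edgeR adjusted p = 0.0487) and Abcg1 higher in both tumours (1.84 and 1.00). The Nr1h3 call in H7 tumours was also lost without either H7 or either UNKC replicate (edgeR adjusted p from 0.0714 to 0.166). The Abca1 call was lost in H7 tumours without H7 replicate 2 (edgeR adjusted p = 0.071), and in UNKC tumours without any one library but normal replicate 1 (0.0521 to 0.219).

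Soat1 and Lipa, which work in opposite directions on cholesterol esters, were both higher in the tumours. Soat1, the enzyme that esterifies cholesterol for storage, stood at 72.1 and 75.4 CPM in H7 tumours, 88.8 and 82.7 CPM in UNKC tumours and 13.0 and 8.59 CPM in normal pancreas (log2 fold change 2.77 ± 0.21 and 2.99 ± 0.21; edgeR adjusted p = 0.000257 and 0.000221). Lipa, the lysosomal lipase that frees cholesterol from its esters, stood at 39.3 and 41.2 CPM in H7 tumours, 47.9 and 48.5 CPM in UNKC tumours and 6.48 and 2.86 CPM in normal pancreas (3.10 ± 0.30 and 3.36 ± 0.30; edgeR adjusted p = 0.000561 and 0.000465). Reads of Soat1 over reads of Abca1 came to 1.27 and 1.70 in H7 tumours, 1.53 and 1.10 in UNKC tumours and 0.139 and 0.0672 in normal pancreas. Cd36, a fatty acid receptor of fat, muscle and macrophages, spread widely within each group, at 11.3 and 19.4 CPM in H7 tumours, 2.48 and 16.5 CPM in UNKC tumours and 26.8 and 71.6 CPM in normal pancreas. It was not called (-1.68 ± 0.91 and -2.37 ± 0.93; edgeR adjusted p = 0.173 and 0.0802), although no tumour library reached a normal one. Without UNKC replicate 1 or 2, Cd36 was called lower in H7 tumours (edgeR adjusted p = 0.04999 and 0.0387), and without UNKC replicate 2 also in UNKC tumours (-4.28, adjusted p = 0.00751). Macrophage markers moved the same way as Soat1 and Lipa. Of 9, all were higher in H7 and 7 in UNKC tumours, and they summed to 627 and 594 CPM in H7 tumours, 355 and 334 CPM in UNKC tumours and 58.3 and 105 CPM in normal pancreas; C1qb and Fcgr1 had no read in normal replicate 1, and the part of macrophages in the rise of Soat1 and Lipa was not tested. Between H7 and UNKC tumours the log2 fold changes of Soat1 and Lipa were -0.22 ± 0.17 and -0.26 ± 0.23, and neither passed the test.

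H7 and UNKC tumours were compared directly to ask which changes differ between the lines. The log2 fold change of H7 over UNKC tumours was above 0 for 28 of the 37 genes, but only 6 passed the test. Elovl5 was 3.47-fold higher in H7 tumours (95% interval 2.70 to 4.46, edgeR adjusted p = 0.00153), and Acaca 1.83-fold (1.43 to 2.35, adjusted p = 0.0124). Among sterol genes, Hsd17b7 was higher by 0.94 ± 0.19 (log2 fold change ± SE, edgeR adjusted p = 0.0187), Cyp51 by 0.79 ± 0.17 (adjusted p = 0.0267) and Dhcr7 by 1.22 ± 0.30 (adjusted p = 0.039). Fads1 was the only one of the 37 called lower in H7 than in UNKC tumours (-1.90 ± 0.23, edgeR adjusted p = 0.00425). Of the 6 mevalonate genes none was called, with log2 fold changes from 0.27 to 0.48, and of the 8 later sterol genes 3 were called. Over all tested genes, 18.3% were called between the tumours. Sqle (0.95 ± 0.27, edgeR adjusted p = 0.0586), Msmo1 (0.80 ± 0.29, adjusted p = 0.116), Nr1h3 (-1.82 ± 0.49, adjusted p = 0.0521) and Scd1 (0.72 ± 0.21, adjusted p = 0.0659) did not pass, and their 95% intervals were 0.30 to 1.60, 0.09 to 1.502, -3.01 to -0.62 and 0.21 to 1.23.

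**Figure D4:**
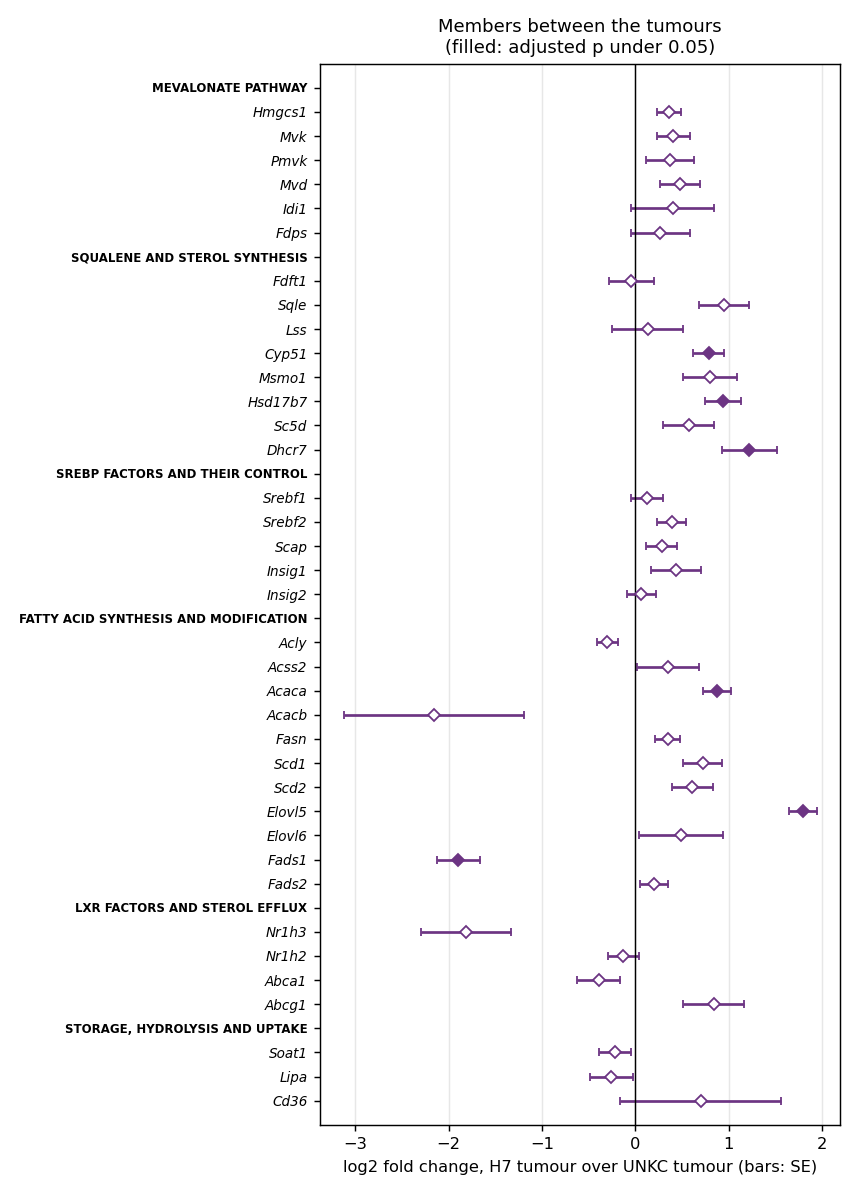
Log2 fold change of each gene in H7 tumours over UNKC tumours, with SE bars; filled diamonds had an edgeR adjusted p under 0.05. The 5 genes called higher in H7 tumours are Elovl5, Dhcr7, Hsd17b7, Acaca and Cyp51, and the 1 called lower is Fads1.

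In the plot of differences between the tumours most genes lie a little right of 0. The 2 tumours did not overlap for 32 of the 37 genes, or 86.5%, against 70.4% of all tested genes; 18.3% of all tested genes were called, and 26 of the 32 were not. The number of calls between the tumours moved with the fit, over all tested genes as well as in the set. At an unadjusted p under 0.05, edgeR on the 4 tumour libraries had 3474 of all genes higher and 3543 lower. DESeq2 had 3335 and 3265, and the main edgeR fit 2262 and 2984. At the same unadjusted threshold, the 4 tumour libraries alone had 19 of the 37 higher and 4 lower. DESeq2 had 19 and 5 of the 37, and the main edgeR fit 13 and 3. By adjusted p, the fit with only the 4 tumour libraries had 14 of the 37 higher and 2 lower in H7 tumours, and DESeq2 gave 17 and 3. Without normal replicate 1 or 2, the counts were 13 and 2. Without H7 replicate 1, H7 replicate 2, UNKC replicate 1 or UNKC replicate 2, which leaves a tumour with 1 library, 1, 1, 1 and 2 were higher. Of the 6 called genes, Elovl5 kept its call whichever single library was left out, and Fads1 lost it without either H7 replicate (edgeR adjusted p = 0.0731 and 0.0545). Acaca, Cyp51, Dhcr7 and Hsd17b7 lost theirs without any one of the tumour libraries (edgeR adjusted p from 0.0595 to 0.267). Markers of other cell types also differed between the tumours. Of 9 macrophage markers, 3 were higher and 1 lower in H7 than in UNKC tumours, with the sums given above. Of 9 acinar markers 5 were higher, though the sums were only 25.6 and 32.4 CPM in H7 tumours and 11.9 and 4.13 CPM in UNKC tumours. Of 7 fibroblast markers 3 were higher, while their sum, led by collagens, was 955 and 1800 CPM in H7 tumours and 2500 and 4147 CPM in UNKC tumours. Of 6 epithelial markers 4 were lower, with sums of 395 and 382 CPM in H7 tumours and 1140 and 952 CPM in UNKC tumours, and 1 of 6 endothelial markers was lower. The part of these cell types in the differences was not tested.

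Per length, the order of the genes differed between groups. In H7 tumours the highest were Scd2 (79.9 RPKM), Elovl5 (68.3), Msmo1 (32.5) and Hmgcs1 (30.4). In UNKC tumours they were Scd2 (52.3 RPKM), Acly (34.1), Hmgcs1 (23.6) and Elovl5 (19.7), and in normal pancreas Scd1 (172 RPKM), Acly (22.5), Fasn (20.4) and Fads2 (14.3). Scd1 in normal pancreas thus stood far above the next gene, whereas the gaps between Msmo1 and Hmgcs1 in H7 tumours lay within the spread of their libraries.

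A further 51 genes of the same pathways, of which 50 were tested, were listed beside the set. In H7 tumours 25 were higher and 13 lower than in normal pancreas, in UNKC tumours 27 and 14, and between the tumours 2 were higher and 8 lower in H7. In H7 tumours 11 of 13 further genes of sterol synthesis and uptake were higher and 1 lower, and in UNKC tumours 10 and 1. Acat2, which joins acetyl-CoA units at the pathway's start, rose by 3.43 ± 0.71 in H7 tumours (15.6 and 14.8 CPM, against 2.78 and 0 CPM in normal pancreas). Its normal values rested on 6 and 0 reads, so the size of that rise is uncertain.

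Among 18 tested genes of fatty acid and triglyceride synthesis, H7 tumours had 7 higher and 6 lower, and UNKC tumours 8 and 6. Mlxipl, which encodes the sugar-responsive factor ChREBP, fell to 0.261 and 0.282 CPM in H7 tumours and 0.277 and 1.17 CPM in UNKC tumours, against 28.2 and 31.0 CPM in normal pancreas (-6.76 ± 0.74 and -5.36 ± 0.68; edgeR adjusted p = 0.000836 and 0.00152). Thrsp, a lipogenic protein of fat and liver, fell with it (-6.62 ± 1.17 and -5.95 ± 1.10). The acyl-CoA synthetase Acsl5 rose to 157 and 164 CPM in H7 tumours and 146 and 131 CPM in UNKC tumours, against 11.1 and 16.7 CPM in normal pancreas (3.53 ± 0.21 and 3.32 ± 0.21). Hsd17b12, a reductase of fatty acid elongation, rose by 3.12 ± 0.25 in UNKC tumours. Most adipocyte markers, all 9 acinar markers and 4 of 5 islet markers were lower in both tumours too. The part of these cell types in the falls of Mlxipl and Thrsp was not tested. Without normal replicate 2 the Thrsp call in UNKC tumours was lost (edgeR adjusted p = 0.0608).

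Among 8 genes of lipid uptake, droplets and lipolysis, H7 tumours had 2 higher and 5 lower, and UNKC tumours 3 and 5. Here and for the oxidation genes below, the shares over all tested genes were 29.6% and 21.9% in H7 tumours. In UNKC tumours they were 29.1% and 19.3%. Plin2, which coats lipid droplets, rose to 134 and 106 CPM in H7 tumours and 76.9 and 63.0 CPM in UNKC tumours, against 9.72 and 10.5 CPM in normal pancreas, and was higher in H7 than in UNKC tumours by 0.78 ± 0.17 (edgeR adjusted p = 0.0296). Hilpda, a droplet protein that restrains lipolysis, rose by 4.54 ± 0.48 in UNKC tumours. Normal pancreas held only 1 and 2 Hilpda reads, so the size of that rise is uncertain. Hilpda was lower in H7 than in UNKC tumours by 2.16 ± 0.28 (3.42 and 3.90 CPM, against 20.1 and 12.7 CPM). Mgll, a monoglyceride lipase, and Fabp4, a fatty acid carrier of fat cells and macrophages, were also lower in H7 than in UNKC tumours (-2.27 ± 0.39 and -2.09 ± 0.51). The sterol receptor Scarb1 was higher in H7 tumours (0.64 ± 0.16, edgeR adjusted p = 0.0399). Among 11 genes of fatty acid oxidation, H7 tumours had 5 higher and 1 lower, and UNKC tumours 6 and 2. Ppargc1a, a coactivator of mitochondrial genes, fell by 6.70 ± 0.47 in H7 tumours (0.0869 and 0.180 CPM, against 17.1 and 11.5 CPM in normal pancreas), and Ppara, a fatty acid-sensing receptor, fell by 4.31 ± 0.91 in UNKC tumours. Without normal replicate 2 the Ppara call was lost (edgeR adjusted p = 0.0894). Between the tumours the Hilpda and Mgll calls were lost without H7 replicate 1 (edgeR adjusted p = 0.0686 and 0.107), and those of Fabp4, Plin2 and Scarb1 without any one tumour replicate (0.0594 to 0.266).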

How the data were processed

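RNA-seq of 6 libraries was analysed. Reads were aligned with STAR to mm10 and counted with featureCounts, and comparisons were made with DESeq2 1.18.1, per the submitters' processing notes; other versions and strand are not given in the sources used here. The authors deposited raw read counts per gene ID for each library, and 2 comparison tables with fragment counts, TPM, log2 fold changes and p-values, per the file headers. TPM was not used.

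The deposited read counts of all 6 libraries were fitted together with edgeR 4.0.16 in R 4.3.3 (filterByExpr, TMM, quasi-likelihood test, Benjamini-Hochberg adjustment, threshold 0.05). SE is the log2 fold change over the square root of F. RPKM is CPM per kilobase of the deposited gene length. The script was tested on simulated data. DESeq2 1.42.0 and other settings were tried (14 planned, 2 chosen after seeing the data). Same-numbered replicates deviated together between the tumours (r = 0.526) but not between tumours and normal pancreas (-0.0122 and -0.0232), and no label pairs them, so they were not paired.

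The genes and lists were chosen with earlier results of these data known. Of the further pathway genes, the text names the 3 largest rises and 3 largest falls called in each comparison, where a group reached 5 CPM. Some genes of these lists are counted but not reported here by name.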

Additional observations from a re-analysis of the deposited data

Results flagged for a closer look

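For 6 genes the change against normal pancreas differed between the tumours, tested by the direct comparison of H7 with UNKC tumours, which equals the difference of both changes (edgeR's quasi-likelihood test, Benjamini-Hochberg adjustment over all tested genes). On the log2 scale, the change in H7 tumours minus that in UNKC tumours was 1.79 for Elovl5, 1.22 for Dhcr7, 0.94 for Hsd17b7, 0.87 for Acaca, 0.79 for Cyp51 and -1.90 for Fads1. Elovl5, Dhcr7, Hsd17b7 and Cyp51 rose in both tumours and rose further in H7 tumours. Acaca was not called in H7 tumours (log2 fold change 0.13) and was lower in UNKC tumours than in normal pancreas. Fads1 was not called in H7 tumours (0.03) and was higher in UNKC tumours than in normal pancreas.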

How the results depend on the processing

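Depth limits normal pancreas most, since its libraries held 3640 and 3818 reads of the 37 genes, and n = 2 a group limits every test. The call counts held within 1.5 times under RLE and upper-quartile factors. Scaled to total counts and set against normal pancreas, H7 tumours had 33 of the 37 higher and 1 lower (12709 and 524 of all genes), 34 and 1 in UNKC tumours (13498 and 312), and 3 were higher in H7 than in UNKC tumours (648 of all genes). Without the filter, H7 tumours had 3 lower against normal pancreas and 2 lower against UNKC tumours. Between H7 and UNKC tumours, DESeq2 gave 17 higher and 3 lower (2717 of all genes higher), the 4 tumour libraries alone 14 and 2 (2318 of all genes higher), and 2 were lower with read counts divided by 2 or ribosomal RNA left out. With the replicate block, which follows numbers that only name the samples, 6 of the 37 were higher and 2 lower in H7 than in UNKC tumours, against 5 and 1 without it. Against normal pancreas the block gave 19 and 4 in H7 tumours (18 and 5 without it) and 19 and 7 in UNKC tumours (20 and 6). It lost the calls of Nr1h3 and Acss2 in H7 and Mvd in UNKC tumours (edgeR adjusted p = 0.0613, 0.0717 and 0.0548). It gained Elovl6 in H7 tumours, Cd36 in both tumours, and Sqle and Nr1h3 between the tumours. Without replicate 2 of both tumours, all 12 counts of calls were 0.

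With 1 library left out, H7 tumours had 17 to 23 of the 37 higher and 2 to 4 lower, against normal pancreas (3586 to 5726 and 2577 to 3524 of all genes). In UNKC tumours 15 to 23 were higher and 2 to 6 lower (3532 to 5675 and 2174 to 3257 of all genes). Between H7 and UNKC tumours 1 to 13 were higher and 0 to 2 lower (185 to 2180 and 376 to 2458 of all genes).

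Log2 fold changes that changed sign follow; the cause was not tested. With RLE factors, Acaca was -0.0323, Fads1 -0.15 in H7 tumours over normal pancreas, and Abcg1 was -0.12, Pmvk -0.000153 in UNKC tumours over normal pancreas. With upper-quartile factors, Acaca was -0.23, Acly -0.063, Fads1 -0.34 in H7 tumours over normal pancreas, and Abcg1 was -0.27, Pmvk -0.16 in UNKC tumours over normal pancreas. With total counts, Fasn was 3.09, Fads2 3.22, Nr1h3 1.25, Acss2 2.14, Abca1 2.12, Cd36 1.51, Nr1h2 3.13, Scap 3.28 in H7 tumours over normal pancreas, and Acaca was 2.60, Fasn 2.81, Fads2 3.10, Nr1h3 3.14, Acss2 1.86, Abca1 2.59, Cd36 0.87, Nr1h2 3.33, Sc5d 3.25, Scap 3.08 in UNKC tumours over normal pancreas, and Insig2 was -0.00933 in H7 over UNKC tumours. In DESeq2, Acaca was -0.0331, Fads1 -0.15 in H7 tumours over normal pancreas, and Abcg1 was -0.12, Pmvk -0.00139 in UNKC tumours over normal pancreas. Without the filter, Fads2 was 0.0337, Scap 0.064 in H7 tumours over normal pancreas, and Nr1h2 was 0.0717, Sc5d 0.0453 in UNKC tumours over normal pancreas. With only the 4 libraries compared, Fads1 was -0.0867 in H7 tumours over normal pancreas, and Abcg1 was -0.00783 in UNKC tumours over normal pancreas. With read counts divided by 2, Fads1 was -0.0381 in H7 tumours over normal pancreas. With ribosomal RNA, Lars2 and 1 unnamed gene left out, Fads1 was -0.00388 in H7 tumours over normal pancreas. Others changed sign when 1 tumour or normal library, or replicate 2 of both tumours, was left out. The range was -0.0921 to 0.0621 for Fads2, -0.28 to 0.51 for Fads1, -0.36 to 0.0789 for Nr1h2, -0.18 to 0.21 for Scap in H7 tumours over normal pancreas. The range was -0.41 to 1.00 for Abcg1, -0.90 to 1.65 for Nr1h3, -0.15 to 0.73 for Pmvk, -0.0361 to 0.0444 for Nr1h2, -0.43 to 0.53 for Sc5d in UNKC tumours over normal pancreas. The range was -0.10 to 0.0348 for Fdft1, -0.0957 to 0.89 for Acss2, -0.094 to 2.63 for Cd36, -0.34 to 0.0588 for Nr1h2 in H7 over UNKC tumours.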

Other observations

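Summed over the 14 genes of mevalonate and sterol synthesis, reads made up 0.136% and 0.113% of the reads outside ribosomal RNA in H7 tumours, 0.0830% and 0.0797% in UNKC tumours, and 0.0103% and 0.0149% in normal pancreas. Reads of Acaca over reads of Acacb came to 100.2 and 21.99 in H7 tumours, 16.6 and 2.69 in UNKC tumours, and 0.293 and 0.418 in normal pancreas. In both tumours the ratio was lower in replicate 2, the library with more muscle transcripts. In UNKC tumours replicate 2 also held more adipocyte marker reads (119 and 1615 reads in replicates 1 and 2). The part of either tissue was not tested.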
